A study of Mus musculus with 8 samples.

Results

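The genes described here are 10 nuclear genes that govern how many mitochondria a cell makes and how mitochondrial DNA is copied and read. They were taken by name from 19939 genes measured in mouse liver on Affymetrix Mouse Gene 1.0 ST arrays, using probe sets that GEO's annotation assigns to that gene alone. All 10 were found. Tfb2m had 2 such probe sets, of which the brighter was used, and the other 9 genes had 1 each. Values are RMA log2 intensities, so a difference of 1 is a doubling, and differences are given as deleted minus control. The 4 arrays of liver in which Albumin-Cre had deleted Hmgb1 were compared with 4 of liver carrying floxed Hmgb1, from littermates that were all male and 8 weeks old, on a C57Bl/6 background backcrossed 5 times per the protocol field and Balb/c per the characteristics. Albumin-Cre is active in hepatocytes, so cells of other lineages in the deleted livers may keep the gene, and Hmgb1 was not measured by cell type. Only titles of the deleted group mention Cre, so an effect of Cre cannot be told apart from that of losing Hmgb1. The protocol names whole liver and the characteristics name stellate cells. Albumin, made by hepatocytes, had log2 intensities between 13.26 and 14.03 on the 8 arrays, against array medians of 6.08 to 6.22. Reln, 1 of the 8 stellate cell genes listed, lay between 9.05 and 9.29. The log2 of the summed intensities of those 8 genes was 12.12 to 12.33. In whole liver, fewer cells of a type and less RNA per cell cannot be told apart. Nothing in the labels says that the arrays of a group came from different mice, so p-values cover only the spread among these arrays, which may be technical.

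Mitochondria carry a small circular genome that encodes core subunits of the respiratory chain. The proteins that copy and transcribe it are encoded by nuclear genes and imported into the organelle. TFAM, itself a protein with HMG boxes like HMGB1, packs this DNA into nucleoids and bends its promoters. TFB2M then lets the RNA polymerase POLRMT open them, while TFB1M, a relative of TFB2M, methylates the small ribosomal RNA. POLG is the replicating DNA polymerase and POLG2 its processivity subunit. Upstream, the transcription factors NRF-1 (Nrf1) and GABP (Gabpa encodes its DNA-binding subunit) act on genes of the respiratory chain and of this machinery, ERR-alpha (Esrra) acts on oxidative metabolism, and the coactivator PGC-1-beta (Ppargc1b) works through these factors. The series asked about autophagy and mitochondrial quality control, and these genes belong to the supply side of the same organelle.

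The genes were taken by name without reading promoter sequence. The motifs sought are those of factors among the 10, known to act on this machinery, so matches are no independent result. RefSeq windows on GRCm38.p6, from 250 bases before the transcription start to 50 after, were at hand for 9 of the 10 genes (10 windows, 2 of them for Nrf1). The ETS motif CCGGAAG, which GABP and other ETS factors bind, was sought on both strands and found in 5 of the 10 windows, against 8.86% of all 32851 windows and 12.1% of the 19177 windows of genes tested here. The 5 are shown because they hold the motif within the 100 bases before the start. They belong to the factor's own gene and to genes for packaging, transcribing and copying mitochondrial DNA. The window of Tfb2m, of the same machinery, held no match and is not shown. Each line gives the 100 bases before the start on the gene's strand, with the motif or its reverse complement in capitals:
Tfam, chr10:71238045-71238144, minus strand: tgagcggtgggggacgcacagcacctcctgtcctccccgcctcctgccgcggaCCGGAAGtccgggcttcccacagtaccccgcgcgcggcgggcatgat
Polrmt, chr10:79746582-79746681, minus strand: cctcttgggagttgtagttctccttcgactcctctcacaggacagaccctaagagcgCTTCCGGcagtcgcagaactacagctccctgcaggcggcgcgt
Polg, chr7:79466274-79466373, minus strand: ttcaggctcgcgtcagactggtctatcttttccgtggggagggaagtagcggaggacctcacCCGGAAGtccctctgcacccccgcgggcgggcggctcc
Polg2, chr11:106779538-106779637, minus strand: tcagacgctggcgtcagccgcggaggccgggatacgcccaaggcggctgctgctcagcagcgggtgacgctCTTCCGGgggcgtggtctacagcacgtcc
Gabpa, chr16:84835024-84835123, plus strand: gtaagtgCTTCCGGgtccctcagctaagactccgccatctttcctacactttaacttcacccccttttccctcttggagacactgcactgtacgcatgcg
The NRF-1 motif, GCGCA and GCGC with 1 free base between them, was sought on both strands too and found in the Polrmt window alone, as the pair of overlapping matches GCGCGTGCGC from −6 to 4 and from 1 to 10 around the start (4.6% of all windows). The ERR motif, AAGGTCA preceded by T and 1 free base, was in 0 of the 10 (1.28% of all windows). A match says only that the letters are there.

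None of the 10 genes passed an adjusted p of 0.05 in limma's fit over all genes (0 of 10), where 0.692% of all genes passed. At an unadjusted p under 0.05 there were 3 of 10, against 9.46% of all genes. The same 3, Ppargc1b, Esrra and Polrmt, were the ones whose 4 deleted and 4 control values did not overlap, against 5.57% of all genes. Esrra and Polrmt were apart as higher (3.27% of all genes) and Ppargc1b as lower (2.3%). Of the 10, 4 had a higher and 6 a lower mean in the deleted livers, with a median log2 fold change of −0.0275 beside 0 for all genes. This split has no stable direction, with a median of 0.0167 (6 higher, 4 lower) without deleted 1, 0.00625 without control 2, 0.005 without control 3 and −0.0808 (3 higher, 7 lower) without control 1. The median size regardless of sign was 0.131, beside 0.0575 over all genes. The 95% intervals of all 10 lay within 1.5-fold in either direction, as did those of 97.2% of all genes. The 2 arrays numbered 1 were often the dimmest for these genes, deleted 1 for 5 of the 10 and control 1 for 3.

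**Figure D1:**
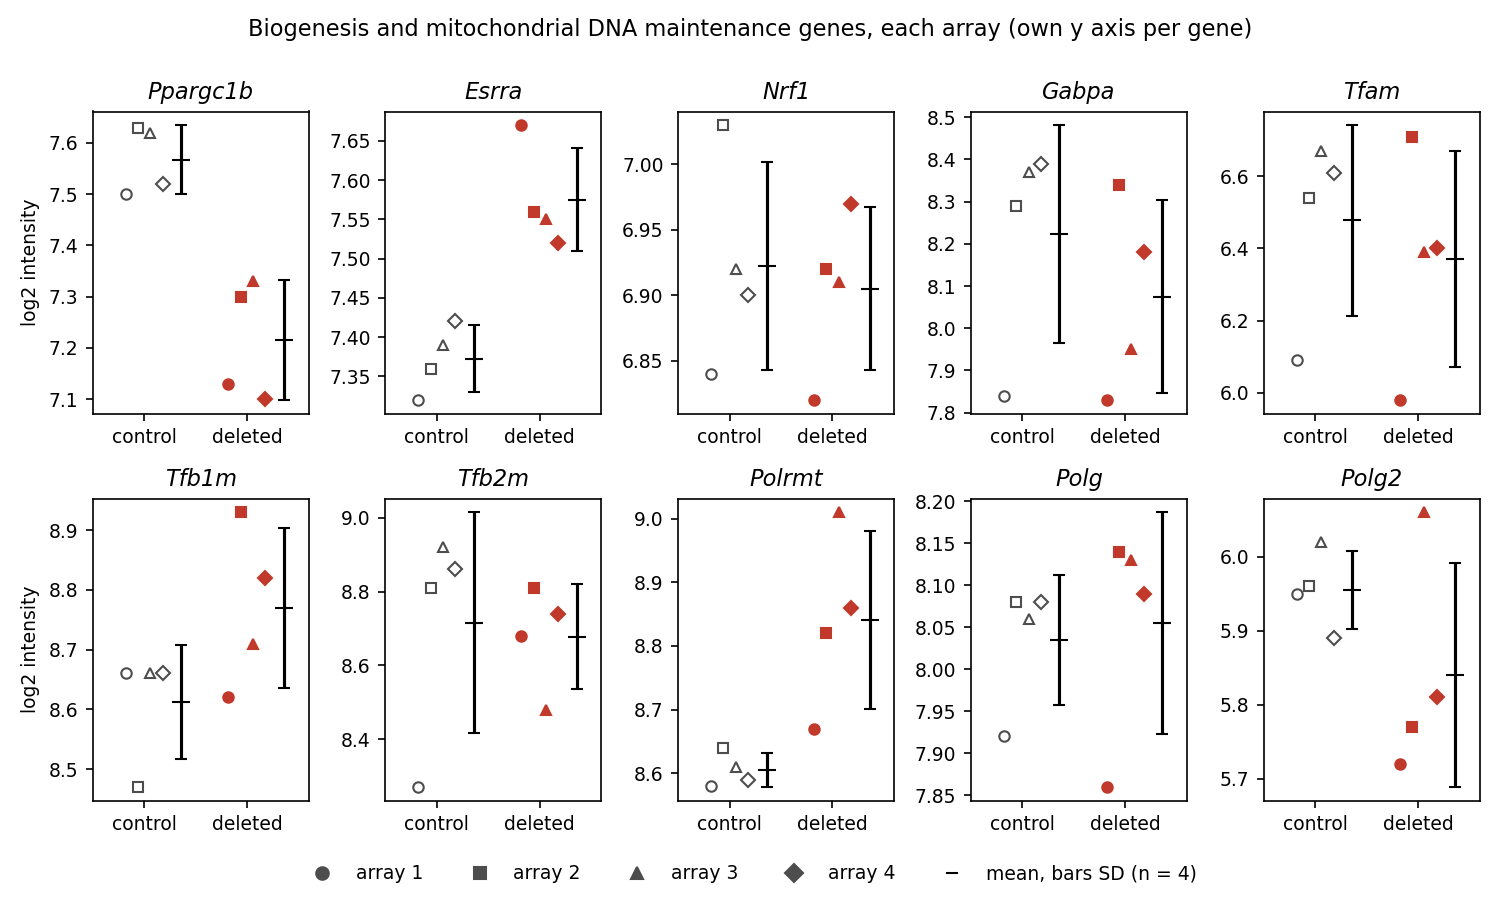
Log2 intensity (y axis, a separate range for each gene) of the 10 genes on the 4 control arrays (open grey) and 4 deleted arrays (red), with symbols for the array number and bars for the mean ± SD. The groups are apart for Ppargc1b (deleted at most 7.33, control at least 7.50), Esrra (deleted at least 7.52, control at most 7.42) and Polrmt (deleted at least 8.67, control at most 8.64), and overlap for the other genes.

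Among the regulators, Ppargc1b had the largest difference of the 10. Its log2 intensities were 7.13, 7.30, 7.33 and 7.10 on deleted 1 to 4 and 7.50, 7.63, 7.62 and 7.52 on control 1 to 4. All deleted values lay below all control values, with deleted 4 and deleted 1 the lowest. The means were 7.215 ± 0.117 (SD, n = 4) and 7.568 ± 0.0670 (SD, n = 4). The log2 fold change was −0.35 (SE 0.072, 95% interval −0.51 to −0.19, 1.28-fold lower), with a limma adjusted p of 0.0619, the 158th smallest p of the 19939 genes. It passed in 4 of 18 alternatives. Among these, limma adjusted p was 0.0357 without floxed control 1 (−0.375), 0.0275 after quantile normalization again and 0.0165 with array weights. In the rest it did not pass, as with all probe sets (limma adjusted p = 0.123), centred arrays (0.147) or control 2 left out (0.193).

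Esrra pointed the other way. Its values were 7.67, 7.56, 7.55 and 7.52 on deleted and 7.32, 7.36, 7.39 and 7.42 on control arrays, so that every deleted array was above every control. The difference, 0.20 (SE 0.059, 95% interval 0.072 to 0.33, 1.15-fold), exceeded the spread within either group but did not pass (limma adjusted p = 0.208). It was 0.17 without deleted 1, the highest of the 8.

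Nrf1 values of the groups overlapped. Deleted arrays had 6.82, 6.92, 6.91 and 6.97 and control arrays 6.84, 7.03, 6.92 and 6.90. Its log2 fold change was −0.0175 (SE 0.064, 95% interval −0.16 to 0.12, limma adjusted p = 0.992), and the sign turned to 0.0025 once arrays were centred on their medians. Gabpa varied more within groups than between them, with 7.83, 8.34, 7.95 and 8.18 on deleted and 7.84, 8.29, 8.37 and 8.39 on control arrays. Deleted 1 and control 1 were the lowest of their groups. Its log2 fold change was −0.15 (SE 0.14, 95% interval −0.45 to 0.16, limma adjusted p = 0.918), running from −0.0658 without deleted 1 to −0.275 without control 1.

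In the transcription machinery, Polrmt, the mitochondrial RNA polymerase, stood out. It had 8.67, 8.82, 9.01 and 8.86 on deleted arrays and 8.58, 8.64, 8.61 and 8.59 on controls, which lay close together (8.605 ± 0.0265, SD, n = 4). The lowest deleted value, that of deleted 1, was just above the highest control. The log2 fold change was 0.235 (SE 0.074, 95% interval 0.072 to 0.40, 1.18-fold), with a limma adjusted p of 0.253. Without deleted 3, the highest array, it was 0.178. Tfb1m, the ribosomal RNA methyltransferase, had 8.62, 8.93, 8.71 and 8.82 on deleted arrays and 8.66, 8.47, 8.66 and 8.66 on controls. Deleted 1 lay among the controls and control 2 was low by itself, and the difference of 0.16 (SE 0.080, 95% interval −0.019 to 0.33) did not pass (limma adjusted p = 0.631).

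Tfb2m, the initiation factor, had 8.68, 8.81, 8.48 and 8.74 on deleted and 8.27, 8.81, 8.92 and 8.86 on control arrays. Control 1 was the lowest of the 8, and without it the log2 fold change of −0.0375 (SE 0.13, 95% interval −0.33 to 0.26) became −0.186. Its dimmer probe set gave nearly the same values, with means of 8.668 and 8.720 and a difference of −0.0525. Tfam, the nucleoid protein, was read near the array medians, at 5.98, 6.71, 6.39 and 6.40 on deleted and 6.09, 6.54, 6.67 and 6.61 on control arrays. Both arrays numbered 1 were low, and the other 3 of each group overlapped. The log2 fold change of −0.11 (SE 0.16, 95% interval −0.45 to 0.24, limma adjusted p = 0.970) had the widest interval of the 10, and the sign turned to 0.0225 without deleted 1.

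Of the replication polymerase, Polg had 7.86, 8.14, 8.13 and 8.09 on deleted and 7.92, 8.08, 8.06 and 8.08 on control arrays. Again the arrays numbered 1 were the low ones in each group, and the difference was 0.020 (SE 0.077, 95% interval −0.15 to 0.19, limma adjusted p = 0.992). Its partner Polg2 had 5.72, 5.77, 6.06 and 5.81 against 5.95, 5.96, 6.02 and 5.89, below the median of every array. On 3 of 4 deleted arrays it was under all controls, while deleted 3 was above them. The log2 fold change was −0.115 (SE 0.079, 95% interval −0.29 to 0.059, limma adjusted p = 0.804), and −0.188 without deleted 3.

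**Figure D2:**
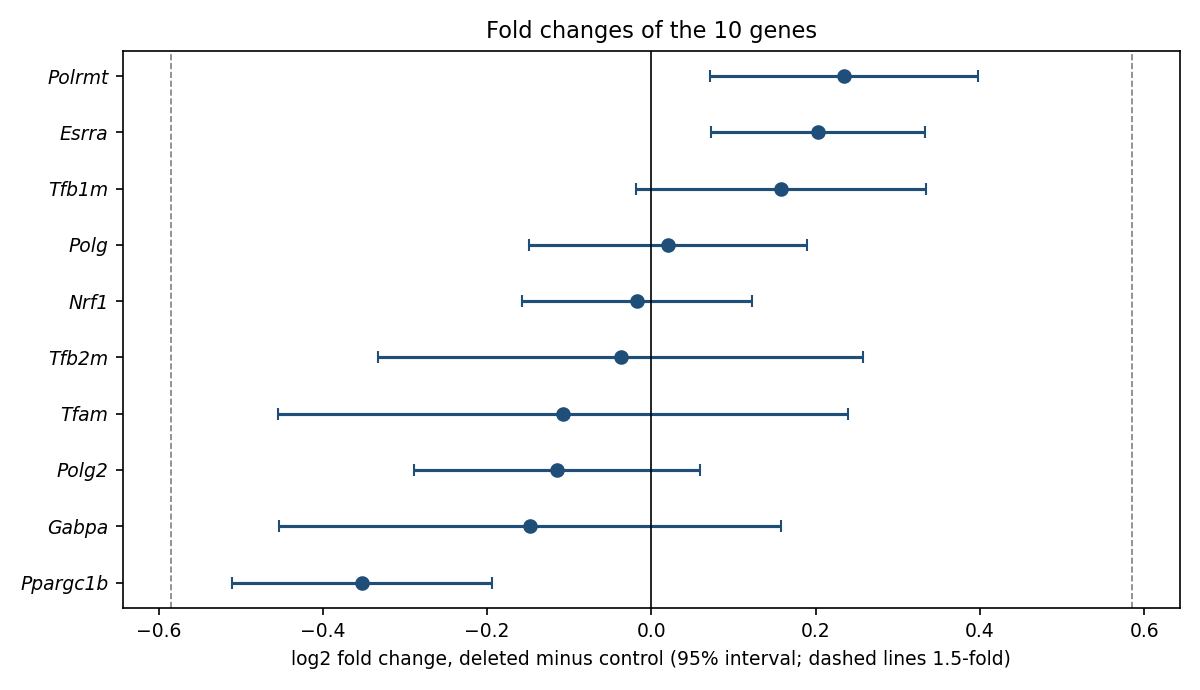
Log2 fold change of each of the 10 genes, deleted minus control (points), with 95% intervals from limma (bars) and dashed lines at 1.5-fold (0.585 on the log2 scale). The intervals of Ppargc1b (−0.51 to −0.19), Esrra (0.072 to 0.33) and Polrmt (0.072 to 0.40) do not reach 0, those of the other 7 do, and none reaches a dashed line.

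**Figure D3:**
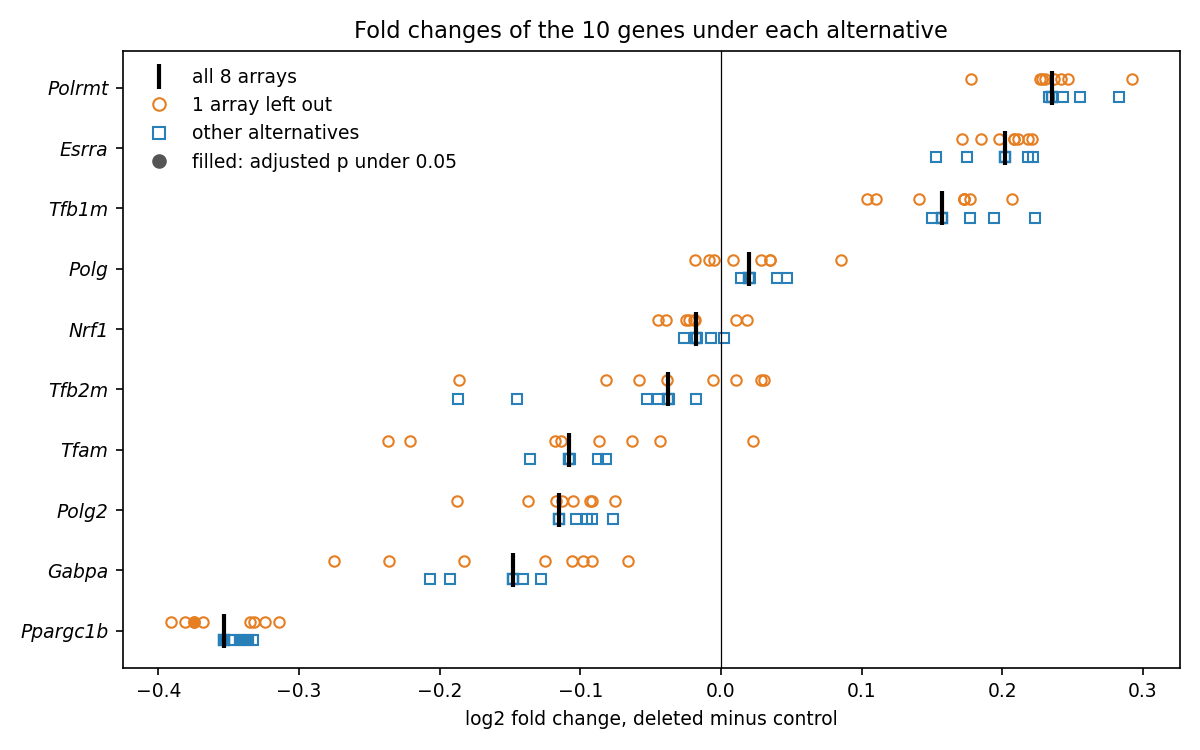
Log2 fold change of the 10 genes (x axis) with all 8 arrays (black bars), with 1 array left out (orange circles) and under the other alternatives (blue squares), filled where the adjusted p is under 0.05. Ppargc1b runs from −0.391 to −0.314, Esrra from 0.153 to 0.222 and Polrmt from 0.178 to 0.292, while Tfam, Tfb2m, Polg and Nrf1 have values on both sides of 0.

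Among 17 other regulators of mitochondrial biogenesis measured (19 listed), Ppara alone passed, where 0.692% of all genes did. An unadjusted limma p under 0.05 was found for 4 (23.5%, against 9.46% of all genes). Groups were apart as higher for 1 and as lower for 2 (17.6%, against 5.57% of all genes). Ppara encodes the nuclear receptor that turns on fatty acid oxidation and is a partner of the PGC-1 coactivators. Its values were 10.22, 10.31, 10.41 and 10.19 on deleted and 10.53, 10.81, 10.88 and 10.87 on control arrays, with no overlap, and it fell by 0.49 (SE 0.088, limma adjusted p = 0.0367). Leaving out any array but control 1 ended this call, with limma adjusted p from 0.0653 without deleted 3 to 0.164 without control 4. It was also lost with all probe sets (0.0927) and with arrays centred on their medians (0.119). Of the 17, 7 had a higher and 10 a lower mean, with a median of −0.010 that was 0.0225 without deleted 4, 0.010 with centred arrays and −0.111 without control 1.

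The PGC-1 family had 3 measured genes. Pprc1, the other ERR genes and the GABP partner subunits are named for their kinship to the 10 genes, after their values were seen. Ppargc1a, encoding PGC-1-alpha, had 7.37, 8.14, 7.70 and 7.79 on deleted and 9.14, 8.21, 8.27 and 8.65 on control arrays. Like Ppargc1b it was lower on every deleted array than on any control. Control 1 was the highest, and the log2 fold change was −0.82 (SE 0.21, limma adjusted p = 0.134), or −0.627 without control 1. With the mean of its probe sets it was −0.684. Over 18 alternatives Ppargc1a ran from −0.948 to −0.50 and passed in 0. Pprc1, the third coactivator, had overlapping groups and a difference of 0.0925 (SE 0.10), or 0.0025 without control 1. Whether the 3 genes differ from each other in their response was not tested.

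Ppard, a receptor related to Ppara, had 8.94, 9.04, 8.78 and 8.81 on deleted and 8.77, 8.13, 8.30 and 8.41 on control arrays. Its groups were apart by a narrow margin set by control 1, at 0.49 (SE 0.12, limma adjusted p = 0.128), and it passed without control 1 (0.612, limma adjusted p = 0.00746). The deacetylase gene Sirt1 had −0.195 (SE 0.085, limma adjusted p = 0.501). Of the other ERR genes, Esrrg was at 0.0875 (SE 0.095) and Esrrb at −0.010 (SE 0.092), the latter turning to 0.00938 after a further quantile normalization and to 0.010 with median-centred arrays. The activating subunits of GABP had 0.135 (SE 0.099) for Gabpb1 and −0.12 (SE 0.062) for Gabpb2. Single arrays carried much of some of these values, as Gabpb1 had 0.0433 without control 1 and Esrrg 0.00833 without control 3.

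**Figure D4:**
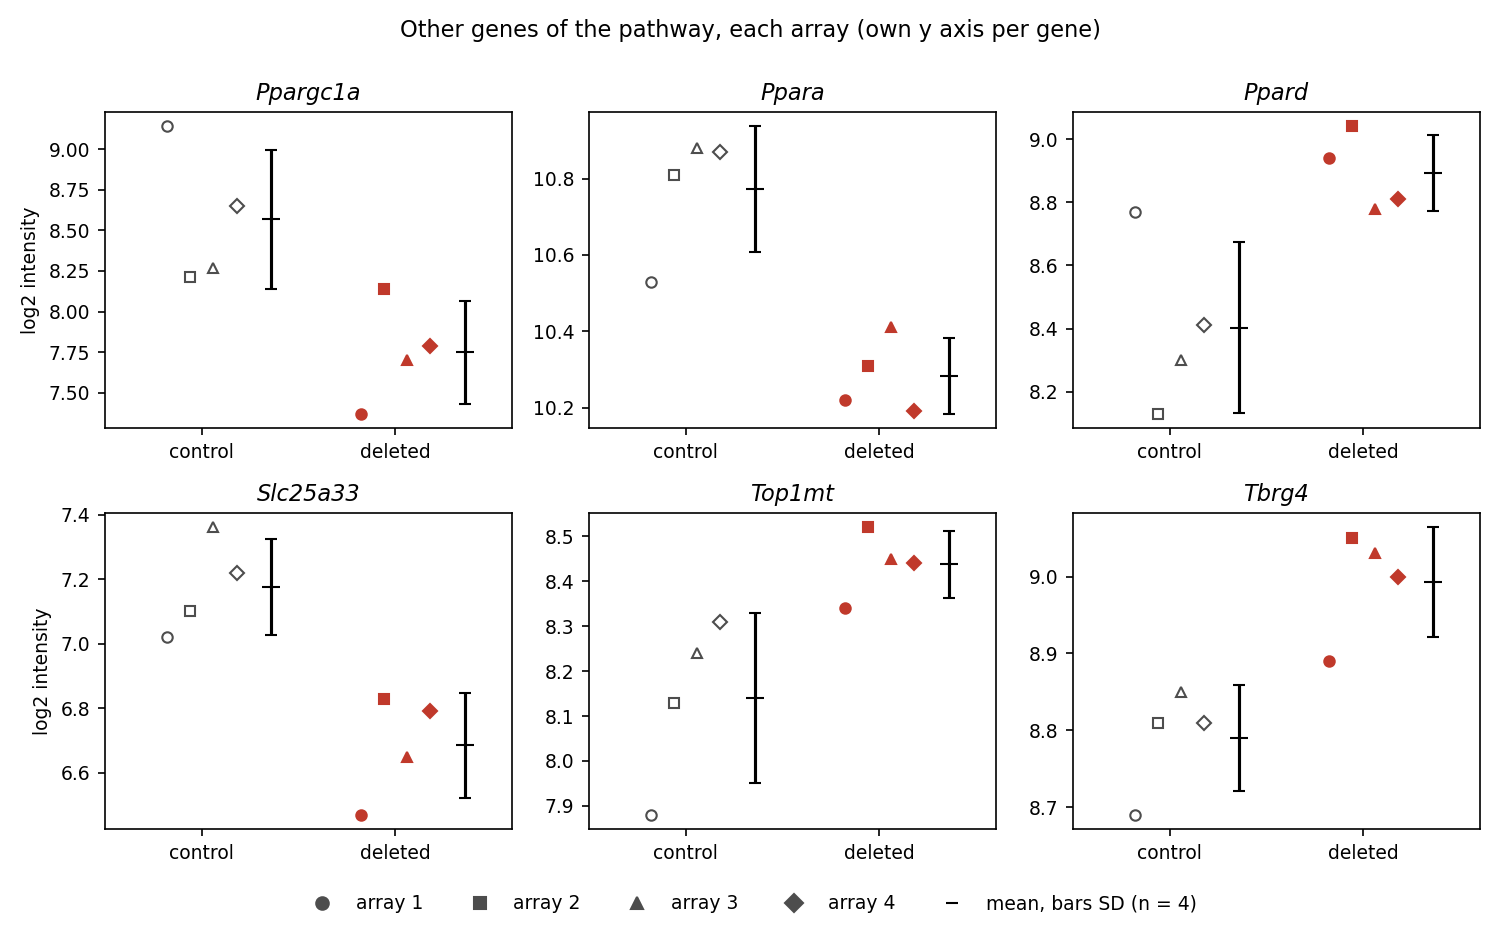
Log2 intensity (y axis, a separate range for each gene) of Ppargc1a, Ppara, Ppard, Slc25a33, Top1mt and Tbrg4 on the 4 control arrays (open grey) and 4 deleted arrays (red), with symbols for the array number and bars for the mean ± SD. The 6 were drawn from the genes with the smallest p of their lists, so their separation is no further result. The groups are apart for all 6 (5.57% of all genes), and overlapping named genes are not drawn. Control 1 is the farthest of the controls from the others for Ppargc1a (9.14 against 8.21 to 8.65) and Ppara (10.53 against 10.81 to 10.88). The same holds for Ppard (8.77 against 8.13 to 8.41), Top1mt (7.88 against 8.13 to 8.31) and Tbrg4 (8.69 against 8.81 to 8.85).

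Genes of mitochondrial DNA replication and nucleotide supply held 0 of 22 past the threshold (23 listed), with 3 at an unadjusted limma p under 0.05. Over all genes, 0.692% passed the threshold and 9.46% had an unadjusted p under 0.05. The median of the 22 was 0.030, with 13 higher and 9 lower, but −0.00667 (11 and 11) without control 1 and −0.00167 (10 and 12) without deleted 2. Slc25a33, a pyrimidine nucleotide carrier of the inner membrane, came nearest. It had 6.47, 6.83, 6.65 and 6.79 on deleted and 7.02, 7.10, 7.36 and 7.22 on control arrays, all deleted ones lower. Its difference was −0.49 (SE 0.097, limma adjusted p = 0.0532). It passed in 5 of 18 alternatives, as without control 1 (−0.542, limma adjusted p = 0.0214). In the rest it did not pass, as with all probe sets (limma adjusted p = 0.126), centred arrays (0.186) or control 4 left out (0.187). Its relative Slc25a36 had −0.30 (SE 0.10, limma adjusted p = 0.324) with overlapping groups, but −0.0663 with the mean of its probe sets. With array weights it passed (limma adjusted p = 0.0355). Top1mt, the mitochondrial topoisomerase, had 0.30 (SE 0.091, limma adjusted p = 0.237), with every deleted array above every control, and passed after quantile normalization again (limma adjusted p = 0.0496). Lig3, the DNA ligase, had 0.22 (SE 0.11, limma adjusted p = 0.592), or 0.107 without control 1.

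Of genes for mitochondrial transcription and RNA processing, 0 of 26 passed (29 listed), against 0.692% of all genes. At an unadjusted limma p under 0.05 there were 2 (7.69%), against 9.46% of all genes. Higher means in the deleted livers were found for 20 and lower for 6, with a median of 0.070, and 15 and 11 without control 1 (median 0.0221). Control 1 had the lowest mean level of this list, −0.198 relative to the genes' means against −0.0199 to 0.0928 on the other 7 arrays. Tbrg4, also called Fastkd4, which stabilises mitochondrial messenger RNAs, had 0.20 (SE 0.063, limma adjusted p = 0.251) and no overlap. Hsd17b10, a subunit of mitochondrial RNase P, had −0.15 (SE 0.066), Nsun4, a ribosomal RNA methyltransferase, 0.18 (SE 0.099), and the exoribonuclease Rexo2 0.17 (SE 0.092). Without control 1 Nsun4 had 0.0933 and Rexo2 0.0883.

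Genes that these factors are known to act on were counted in the same way. Of 17 textbook targets of NRF-1 and GABP measured (18 listed), 0 passed, against 0.692% of all genes. An unadjusted limma p under 0.05 was found for 2 of them (11.8%, against 9.46% of all genes). Lower means were found for 16, with a median of −0.0675, but for 11 after quantile normalization again (median −0.0288). Alas1, the first enzyme of heme synthesis, was the 1 with a higher mean, at 0.42 (SE 0.17, limma adjusted p = 0.420). The respiratory chain genes Atp5c1 (−0.19), Cox6c (−0.155) and Uqcrh (−0.15) had the smallest p of the others. Of 13 textbook ERR and PGC-1 targets (15 listed), 0 passed and 3 (23.1%) had an unadjusted limma p under 0.05. In this list 10 were lower (7 after quantile normalization again), with a median of −0.070. Acadm, the medium-chain acyl-CoA dehydrogenase, had −0.21 (SE 0.076), Cpt1a, the carnitine shuttle enzyme, −0.175 (SE 0.076), Idh3b, of the citric acid cycle, −0.12 (SE 0.074), and Pdk4, which restrains pyruvate dehydrogenase, 0.42 (SE 0.14, limma adjusted p = 0.292). The 15 listed genes encoded by mitochondrial DNA itself had no probe set named here and were not analysed.

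**Figure D5:**
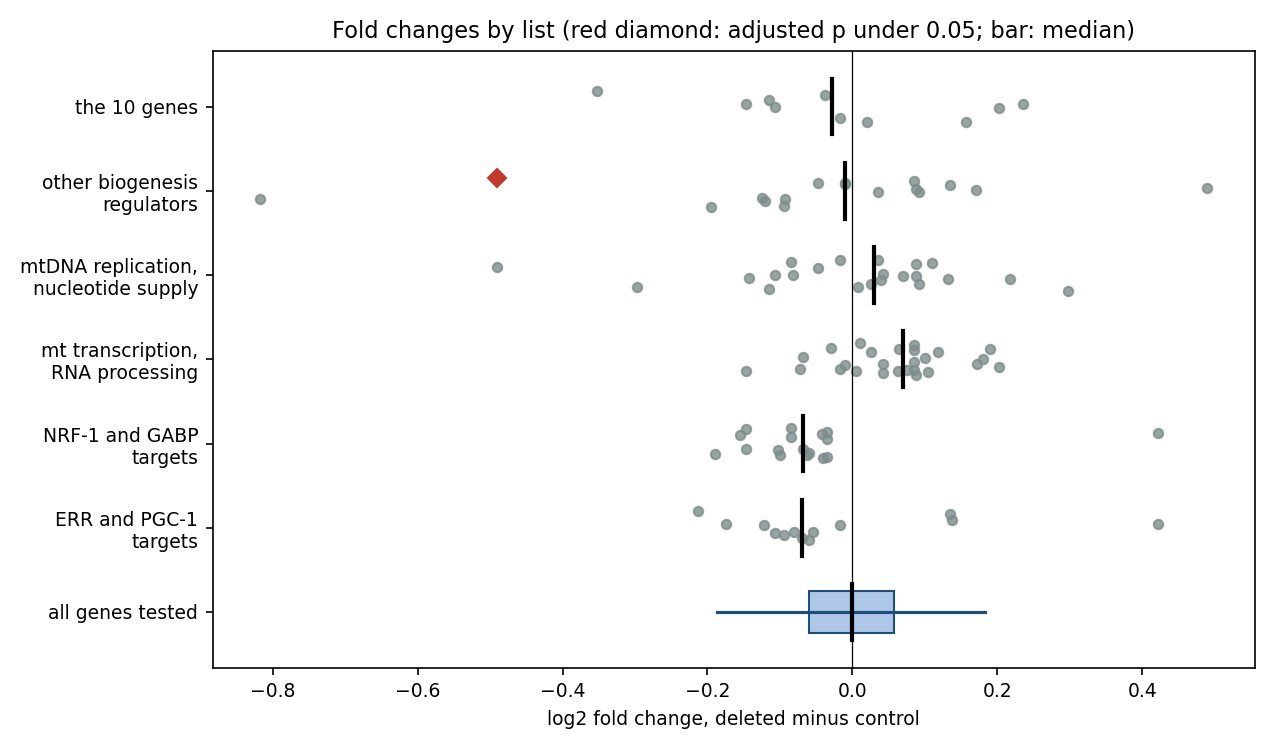
Log2 fold change, deleted minus control (x axis), of every measured gene of the 10 and of the 5 related lists (grey points; red diamond where the adjusted p is under 0.05), with the median as a black bar, and below them all genes tested (box from the 25th to the 75th percentile, −0.060 to 0.0575; line from the 5th to the 95th, −0.188 to 0.182). Ppara is the single red diamond, and the medians of the lists lie between −0.070 and 0.070.

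Facts of the arrays as a whole bear on these values. Hmgb1 itself fell by 0.905 on its single-gene probe set (SE 0.14, limma adjusted p = 0.0216), with no overlap. The probe set is dim, at 4.20 to 5.78 on the 8 arrays, under every array median and removed by the filter on dim genes, so the fold is uncertain. That call was lost without deleted 3, deleted 4, control 3 or control 4 (limma adjusted p of 0.0561 to 0.0797) and with all probe sets (0.0652). Control 1 stood apart on the first principal component, at 26.6 against −11.7 to 11.4 for the other 7 arrays. Of the sinusoidal endothelial markers 8 of 8 were lower in the deleted livers, and their summed level was 12.24 to 12.28 on deleted and 12.55 to 12.70 on control arrays (log2). Clec4g was the 1 that fell past the threshold (by 0.615, limma adjusted p = 0.00629; 0.121 with the mean of its probe sets). Hepatocyte markers were lower for 8 of 9 (4 of 9 after quantile normalization again), with summed levels of 15.89 to 16.34 and 16.31 to 16.37, deleted 4 being the lowest. Both of the 2 erythroid markers measured of 6 listed were lower (summed level 9.65 to 9.72 against 9.81 to 10.48). So were 3 of 5 cholangiocyte markers (summed level 8.37 to 8.56 against 8.67 to 8.69), while 2 were higher. In each of these 2 lists the groups were apart for 1 gene alone. Summed levels overlapped between the groups for stellate (12.12 to 12.28 against 12.22 to 12.33) and Kupffer markers (12.10 to 12.20 against 12.11 to 12.24). They also overlapped for lymphocyte (7.99 to 8.11 against 8.00 to 8.13) and neutrophil markers (7.89 to 8.10 against 7.88 to 8.19). Array intensities have no true 0, so no marker can be called absent. The part of these markers in the values of Ppargc1b, Ppargc1a, Ppara, Esrra and Polrmt was not tested.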

How the data were processed

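Mouse liver RNA was measured on 8 Affymetrix arrays (4 Hmgb1 deleted, 4 floxed control). The authors' deposited values are log2 intensities, made with RMA per the submitters' processing notes. RMA's software and version and the genome build were not given in the sources used here. Of 35556 probe sets, 21789 have 1 gene symbol in GEO's annotation, 1621 several and 12146 none. Each of 19939 genes was represented by its single-symbol probe set with the highest mean over the 8 arrays, with no filter on dim ones. Groups were compared with limma 3.58.1 in R 4.3.3 (lmFit, eBayes, 2-sided, no covariate), with Benjamini-Hochberg adjustment over all genes and a threshold of 0.05. The script was tested on simulated data. Intervals are 95% intervals of the moderated fit. Precision is limited by the number of arrays.

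The 10 genes, the related lists, the motifs and the alternatives were chosen with earlier results of these data known. Beside the 10, up to 4 genes with the smallest p of each related list were named. Hmgb1, albumin, kin of the 10 genes, 1 endothelial marker and 1 stellate cell gene were named too. Promoters came from RefSeq (GRCm38.p6). A marker list's summed level is the log2 of its genes' summed intensities. Alternatives covered a filter on the dimmest 20% of genes, averaging the probe sets of a gene, fitting all probe sets, quantile normalization again, centring on array medians, a variance trend, a robust prior, array weights, the replicate block, and each array left out. Leaving out both arrays numbered 1, the counts in related lists under each alternative and the dimmer Tfb2m probe set were added after seeing the data. Python 3.11.15 and matplotlib 3.10.9 made the figures.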

Additional observations from a re-analysis of the deposited data

Results flagged for a closer look

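In 76 groups of 4 values, 6 had 1 array far from the other 3, judged by how much of the group's range separated it from the next value. By chance about 1 in 20 such groups would, or 3.8. Here 3 were among the 10 genes. Tfb1m on control 2 had a log2 intensity of 8.47 against 8.66 on each of the other controls. Tfb2m on control 1 had 8.27 against 8.81 to 8.92, and Polg on control 1 had 7.92 against 8.06 to 8.08. Among other named genes, control 1 was low for Sirt1 (6.92 against 7.18 to 7.20) and Lig3 (7.33 against 7.73 to 7.81), and deleted 4 was low for albumin (13.26 against 13.93 to 14.03). No explanation was tested for these values.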

How the results depend on the processing

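Under 18 alternatives Ppargc1b, Esrra, Polrmt, Tfb1m, Polg2 and Gabpa kept their signs. Ppargc1b passed in 4, with limma adjusted p of 0.0275 after quantile normalization again, 0.0165 with array weights, 0.0254 with the replicate block and 0.0357 without control 1, and 0.0552 to 0.193 in the other 14. The count of the 10 genes that passed was therefore 1 in those 4 and 0 otherwise, with both arrays numbered 1 left out too (0.0552). Over all genes 264 passed after quantile normalization again, 61 with arrays centred on their medians, 526 with array weights, 325 with the replicate block and 366 without both arrays numbered 1, against 138 in the main comparison, and 37 (without deleted 4) to 321 (without control 1) with 1 array left out. Only 1 gene of the related lists (Ppara) passed in the main comparison. That number was 2 with the filter on dim genes, 0 with all probe sets, 2 after quantile normalization again, 0 with arrays centred on their medians, 4 with array weights, 2 with the replicate block, 3 without both arrays numbered 1, and 0 to 3 with 1 array left out. Signs turned for Tfb2m, Polg, Nrf1 and Esrrb, with main values near 0, and for Tfam (−0.108) and albumin (−0.19). With 1 array left out Tfam ran from −0.237 to 0.0225, Tfb2m from −0.186 to 0.0308, Polg from −0.0183 to 0.085, Nrf1 from −0.045 to 0.0183 and Esrrb from −0.0808 to 0.0792. Nrf1 had 0.0025 with arrays centred on their medians, Esrrb 0.010 there, 0.00938 after quantile normalization again and 0.0131 with array weights, and albumin 0.000469 after quantile normalization again. The cause was not tested. Deviations of same-numbered arrays correlated at 0.42, 0.052, −0.13 and 0.29 for numbers 1 to 4. These values do not settle whether the replicate numbers of the titles pair the arrays. Polg2 lay below and Tfam near the array medians, where array signal resolves differences least.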
